A study of Mus musculus with 8 samples.

Results

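Glycosaminoglycans are the long, sulfated sugar chains of proteoglycans, and the enzymes that build and sulfate them were followed here in the aorta of Marfan mice at an early and an advanced age. The enzymes were taken by gene symbol: the sulfotransferase families Chst, Hs2st, Hs3st, Hs6st and Ndst, the uronyl sulfotransferase Ust, the chain polymerases Chsy, Chpf, Csgalnact, Ext and Extl, the linker enzymes Xylt1, Xylt2, B4galt7, B3galt6 and B3gat3, and the epimerases Dse and Dsel. Of 25526 symbols listed in the count tables, 48 were such genes, and 38 of them had enough counts to be tested. The other 10 are described near the end. All mice, at both ages, were males with 1 copy of the fibrillin-1 missense allele Fbn1 C1041G (genotype Fbn1C1041G/+), a model of Marfan syndrome, so no wild-type group entered the comparison. Aortic tissue gave 4 libraries at 12 weeks, an age the submitters describe as one of aneurysm growth, and 4 at 2 years, which they describe as growth-arrested. Neither the segment of the aorta nor the strain background is stated in the labels. RNA was measured by bulk sequencing, which cannot tell fewer cells of a type from less RNA per cell.

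A chondroitin or heparan sulfate chain starts on a serine of a core protein, where a short linker of xylose, galactose and glucuronic acid is built. The next sugar decides the kind of chain: N-acetylgalactosamine (GalNAc) leads to chondroitin sulfate, which becomes dermatan sulfate where glucuronic acid is epimerised to iduronic acid, and N-acetylglucosamine (GlcNAc) leads to heparan sulfate. Sulfotransferases then add sulfate at set positions, and the pattern they leave governs which growth factors, proteases and lipoproteins the chain binds. In the arterial wall, chondroitin and dermatan sulfate sit on versican, aggrecan, biglycan and decorin between the elastic layers, and heparan sulfate on perlecan and the syndecans at basement membranes and cell surfaces.

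Libraries held 16251986 to 33880690 counts. Levels are given as CPM, counts scaled to a library of 1e+06 after TMM scaling, always in the order of replicates 1 to 4, and a level that is compared between genes is divided by transcript length in kilobases. Changes are log2 fold changes of 2 years over 12 weeks with their standard error (SE) from edgeR's quasi-likelihood test, adjusted by the Benjamini-Hochberg method over 13978 tested genes, with 0.05 as the limit of the adjusted p for a call. The smooth muscle markers were abundant in all libraries (summed level 30710 to 36580 CPM at 12 weeks and 17640 to 26270 CPM at 2 years). The library of 12 weeks replicate 3 stood apart by heart muscle transcripts (1204 CPM summed, against 227.1 to 295.8 CPM in the other 12-week libraries). Its fat markers were also high (594.9 CPM summed, against 113.7 to 208.4 CPM). Replicate 3 at 2 years had the lowest total and a mitochondrial share of 10.29% of counts. It also had the highest summed fat (807 CPM) and fibroblast markers (3020 CPM) and the lowest smooth muscle markers (17640 CPM) of all libraries. The mutated gene Fbn1 was at 822.4 ± 71.5 and 483.7 ± 103.6 CPM (SD, n = 4; log2 change -0.77, adjusted p = 0.00309 by edgeR), and at 0.20 and not called with the offset. Fold changes over all genes also leaned on transcript length, so a second fit took out each library's trend with transcript length and GC share. It is called the offset here and is given where it bears on a value.

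Single enzymes were called in both directions, and the calls together were no more frequent than among all genes tested. The total of the 48 enzymes did not differ beyond the spread between libraries. Their summed level was 1650 ± 63.1 CPM at 12 weeks and 1571 ± 88.1 CPM at 2 years (SD, n = 4; exact two-sided permutation p = 0.2). Of the 38 tested, 10 rose and 7 fell, and the other 21 did not pass the test. Among all genes tested, 52% were called, 25.8% as higher and 26.2% as lower. The median log2 fold change was 0.05 for the enzymes and -0.01 for all genes. With the offset, 14 enzymes were called higher and 6 lower (50.7% of all genes called, 24.9% higher and 25.7% lower), and the median of the enzymes was 0.32. Joined with the replicate number as a block, the offset gave 13 higher and 5 lower (44.3% of all genes called, 21.6% higher and 22.6% lower). Without 12 weeks replicate 3 and 2 years replicate 3, an exclusion chosen after seeing the data, 7 rose and 7 fell (46.4% of all genes called, 22.7% higher and 23.7% lower). The values of the 2 ages did not overlap for 17 of the 38 enzymes, against 49.6% of all genes tested. Changes of at least 2-fold were called for 5 enzymes upward (Chst1, Chst15, Chst11, Chst7 and Hs3st3b1) and for 2 downward (Ndst3 and Chst3). Over all genes 11.7% rose and 10.6% fell by that much.

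**Figure D1:**
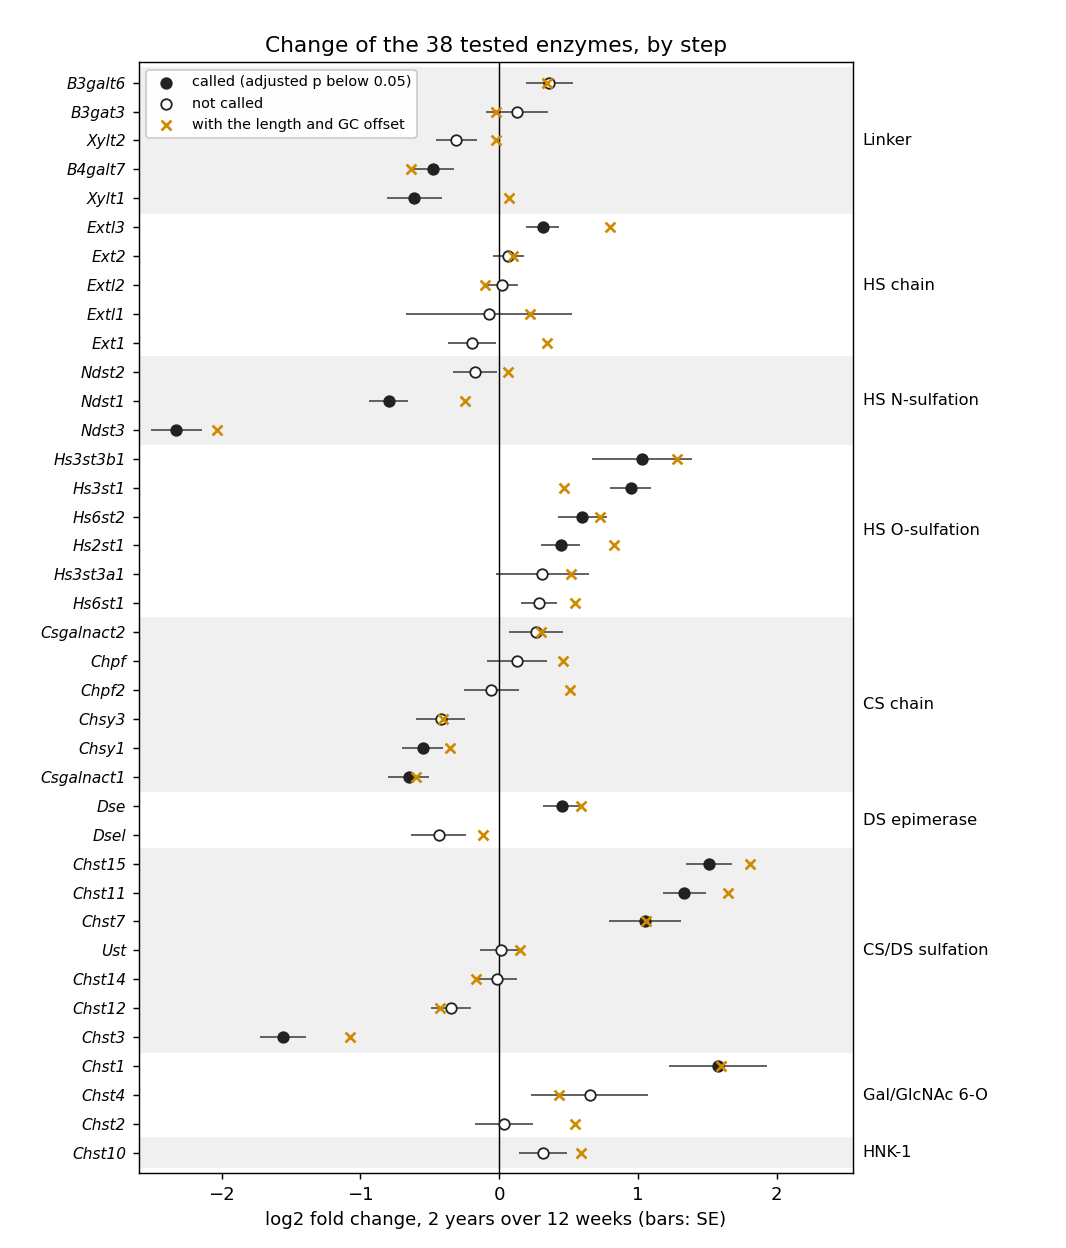
Log2 fold change of each of the 38 tested enzymes (2 years over 12 weeks, n = 4 per age, horizontal axis), grouped by step. Circles with SE bars are filled where the change was called, and crosses show the value with the length and GC offset. The 7 enzymes for chondroitin and dermatan sulfation run from -1.56 (Chst3) to 1.51 (Chst15).

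In the sulfation of chondroitin and dermatan sulfate 3 of 7 tested enzymes rose and 1 fell, beside 52% of all genes called. Chst11, which puts sulfate on the 4-O position of GalNAc in chondroitin, rose 2.52-fold, and Chst15, which adds a 6-O sulfate to GalNAc that already carries one at 4-O, rose 2.86-fold. Chst3, the main 6-O sulfotransferase of chondroitin, fell 2.94-fold, while its weaker relative Chst7 rose 2.07-fold from a low level. Promoter sequence is shown for 4 enzymes: Chst15 and Ndst3, the enzymes with the smallest p in each direction, Chst11, the partner of Chst15, and Chst3, which was added after its values were seen. The sequences are RefSeq's for GRCm38.p6, from 250 bases before to 50 after the start of transcription, the first listed start where a gene has more than 1. They lie at chr10:82985247-82985546 on the plus strand (Chst11), chr7:132317179-132317478 on the minus strand (Chst15), chr10:60219211-60219510 on the minus strand (Chst3) and chr3:123672428-123672727 on the minus strand (Ndst3). Capitals mark every match, on either strand, to GGGCGG or CCAAT.
Chst11: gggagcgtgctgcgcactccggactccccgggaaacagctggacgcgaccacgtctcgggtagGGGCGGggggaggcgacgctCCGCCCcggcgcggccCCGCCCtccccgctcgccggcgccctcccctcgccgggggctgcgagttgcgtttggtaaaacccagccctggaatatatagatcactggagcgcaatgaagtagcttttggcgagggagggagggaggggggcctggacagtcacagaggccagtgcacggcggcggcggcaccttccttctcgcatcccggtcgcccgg
Chst15: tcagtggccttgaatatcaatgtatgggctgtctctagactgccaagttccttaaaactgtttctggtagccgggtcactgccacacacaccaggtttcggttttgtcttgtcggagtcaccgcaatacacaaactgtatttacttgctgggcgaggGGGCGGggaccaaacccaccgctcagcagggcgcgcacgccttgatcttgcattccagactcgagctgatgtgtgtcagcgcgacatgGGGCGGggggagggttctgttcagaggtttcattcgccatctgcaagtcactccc
Chst3: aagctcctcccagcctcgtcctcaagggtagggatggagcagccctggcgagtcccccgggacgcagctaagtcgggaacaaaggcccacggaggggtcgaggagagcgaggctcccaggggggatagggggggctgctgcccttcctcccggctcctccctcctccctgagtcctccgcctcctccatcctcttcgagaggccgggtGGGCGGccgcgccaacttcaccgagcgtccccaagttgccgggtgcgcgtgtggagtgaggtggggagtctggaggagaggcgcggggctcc
Ndst3: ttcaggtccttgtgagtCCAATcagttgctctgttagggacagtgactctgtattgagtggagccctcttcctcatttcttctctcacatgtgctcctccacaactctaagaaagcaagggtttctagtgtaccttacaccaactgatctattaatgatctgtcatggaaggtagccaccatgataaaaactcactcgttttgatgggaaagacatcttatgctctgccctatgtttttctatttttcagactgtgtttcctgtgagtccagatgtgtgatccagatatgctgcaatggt

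The promoters of Chst11, Chst15 and Chst3 held 34, 15 and 22 CpG pairs, that of Ndst3 held 1, and the median over all 32851 promoters of the same length was 7. GGGCGG, the GC box bound by Sp-family factors, matched 3 times in Chst11, 2 times in Chst15, once in Chst3 and not in Ndst3. So Chst11 and Chst15, which rose, and Chst3, which fell, all hold this motif, as do 35.7% of all promoters. CCAAT matched once in Ndst3 and in 37.4% of all promoters. No match to TATAAA (13.6% of all promoters), TGANTCA (7.81%) or the CArG box of serum response factor (1.63%) was found in the 4 windows. Of the 48 enzymes 39 had a promoter entry, with a median of 23 CpG pairs, and 26 of the 39 held GGGCGG.

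Chst11 was at 13.8, 18.1, 18.5 and 16.3 CPM at 12 weeks and at 38.6, 34.5, 42.5 and 52.6 CPM at 2 years. Every 2-year library lay above every 12-week library, with a log2 change of 1.33 ± 0.16 (SE, adjusted p = 5.48e-05 by edgeR). Chst15 was at 12.2, 12.5, 14.2 and 13.6 CPM and then at 30.8, 38.3, 31.3 and 49.5 CPM, again without overlap (log2 change 1.51 ± 0.16 (SE), adjusted p = 3.17e-05 by edgeR). For both, 2 years replicate 4 was the highest library. Chst3 was at 53.8, 51.9, 49.8 and 52.4 CPM at 12 weeks, a narrow range, and at 15.8, 17.9, 13.2 and 23.6 CPM at 2 years. The lowest 12-week library was above the highest 2-year library by more than the whole 2-year range (log2 change -1.56 ± 0.17 (SE), adjusted p = 2.74e-05 by edgeR). Chst7 went from 2.75, 1.77, 2.70 and 4.34 CPM to 5.45, 6.35, 6.11 and 6.08 CPM (log2 change 1.05 ± 0.26 (SE), adjusted p = 0.00547 by edgeR). Its 12-week values were spread and its 2-year values close together. With the offset the log2 fold changes were 1.65 for Chst11, 1.81 for Chst15, -1.08 for Chst3 and 1.06 for Chst7, all called.

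The other enzymes of this step did not pass the test. Chst12, a further chondroitin 4-O sulfotransferase and per length the most abundant of the step at 12 weeks (26.1 CPM per kb, against 8.51 for Chst3, 3.01 for Chst11 and 2.60 for Chst15), was at 62.5, 59.8, 56.6 and 64.9 CPM and at 41.1, 40.3, 50.3 and 59.7 CPM (log2 fold change -0.35, edgeR adjusted p = 0.0605). Its 2-year range reaches up to the 12-week values in replicate 4 only, and without that library it was called (-0.47, adjusted p = 0.0131 from edgeR), as it was with the offset (-0.43). Chst14, which sulfates dermatan at 4-O next to iduronic acid, was at 24.3 ± 2.77 and 24.1 ± 3.74 CPM (SD, n = 4), and Ust, which adds sulfate to the 2-O position of the uronic acid, at 35.7 ± 4.57 and 36.1 ± 6.76 CPM. For these the log2 fold changes were -0.01 (SE 0.14) and 0.01 (SE 0.15). At 2 years the per-length levels were 20.5 CPM per kb for Chst12, 11.6 for Chst14, 8.53 for Ust, 7.61 for Chst11, 7.44 for Chst15, 2.89 for Chst3 and 2.72 for Chst7. Chst11 and Chst15 had thus passed Chst3, and Chst3 and Chst7 were close together.

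**Figure D2:**
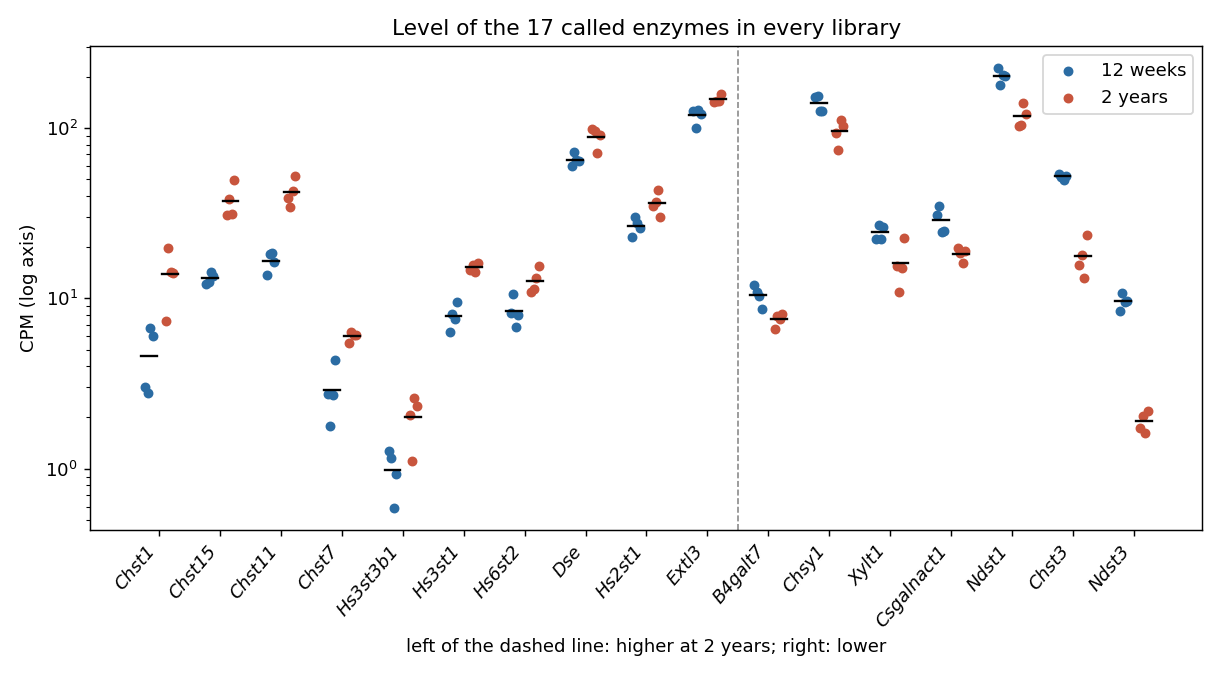
CPM on a log axis for each of the 17 called enzymes in every library (points) with the mean of each age (black bars), 12 weeks on the left of each pair and 2 years on the right. Enzymes left of the dashed line were higher at 2 years. The 12-week points of Chst3 lie between 49.8 and 53.8 CPM and its 2-year points between 13.2 and 23.6 CPM.

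Ratios within a library compare the transcripts of these enzymes without reference to other genes. A set of 13 pairs was compared, as ratios of CPM per kb. The enzymes of a pair had the same or an alternative step, a joint step (Ext1 and Ext2) or a following step (Chst15 after Chst11). The ratio of Chst11 to Chst3 was 0.284, 0.386, 0.412 and 0.344 at 12 weeks and 2.70, 2.12, 3.54 and 2.46 at 2 years. Chst3 was the more abundant transcript in all 12-week libraries and Chst11 in all 2-year libraries, a 7.52-fold shift of the ratio. The ratio of Chst3 to Chst7 went from 6.86, 10.2, 6.49 and 4.29 to 1.04, 1.01, 0.771 and 1.39, so the 2 chondroitin 6-O enzymes, far apart at 12 weeks, were level at 2 years. Chst11 to Chst12 went from 0.0933, 0.128, 0.138 and 0.106 to 0.396, 0.360, 0.357 and 0.372. By contrast Chst11 and Chst15 rose side by side, their ratio being 1.03 to 1.32 at 12 weeks and 0.820 to 1.24 at 2 years. The 2 ages did not overlap for 6 of the 13 pairs: these 3, Dse to Dsel, Csgalnact1 to Csgalnact2 and Ndst1 to Ndst2. Each of the 6 gave an exact two-sided permutation p of 0.0286, the smallest that 4 against 4 libraries allow. Adjusted over the 13 pairs by the Benjamini-Hochberg method this is 0.0619, so none passed 0.05 (0 of 13, with 6 at an unadjusted p under 0.05). The pairs were chosen with earlier results of these data known, so these p-values only describe the ratios. How often ratios of other gene pairs overlap was not computed. With the offset the shift of Chst11 to Chst3 was 2.75 on the log2 scale, against 2.91 without it.

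**Figure D3:**
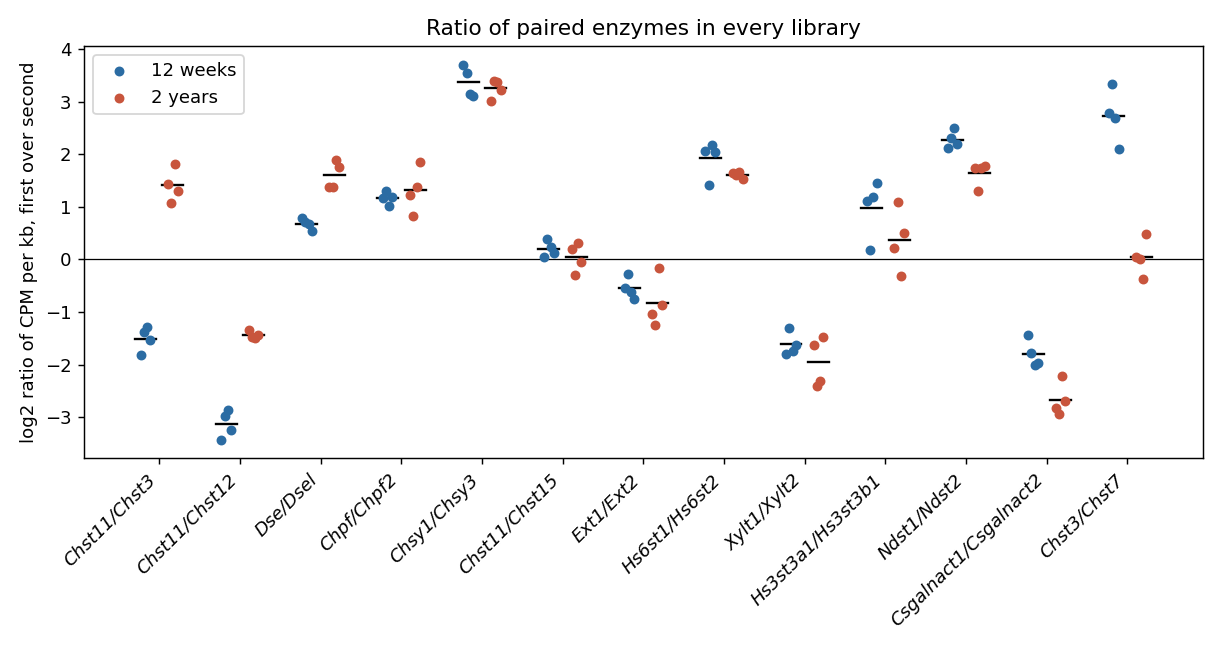
Log2 ratio of the CPM per kb of the first enzyme over the second for 13 pairs, in every library (points; blue 12 weeks, red 2 years) with the mean of each age (bars). Chst11/Chst3 moves from below 0 to above 0 in all libraries, and Chst3/Chst7 falls to about 0.

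Chain building on the chondroitin side had 2 of 6 enzymes called lower, beside 26.2% of all genes. Csgalnact1, which adds the GalNAc that commits a linker to chondroitin, was at 30.9, 35.0, 24.6 and 24.9 CPM at 12 weeks and at 19.9, 18.4, 16.1 and 19.0 CPM at 2 years. The ages did not overlap (log2 change -0.65 ± 0.15 (SE), adjusted p = 0.00329 by edgeR). Its paralog Csgalnact2, which has the same activity, was at 78.2, 111, 91.4 and 90.4 CPM and at 131, 131, 70.1 and 114 CPM. Here 2 years replicate 3 was the lowest of all libraries and the other 2-year libraries the highest, and the log2 fold change was 0.27 (edgeR adjusted p = 0.271), or 0.43 and called without that library (adjusted p = 0.0207). The per-length ratio of Csgalnact1 to Csgalnact2 lay between 0.250 and 0.368 at 12 weeks and between 0.131 and 0.214 at 2 years.

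Chsy1, the polymerase subunit with the highest per-length level of the step (33.5 CPM per kb at 12 weeks), was at 153, 154, 127 and 125 CPM and fell to 93.8, 74.5, 111 and 103 CPM. All 2-year libraries were lower than all 12-week libraries (log2 change -0.55 ± 0.15 (SE), adjusted p = 0.00915 by edgeR), and a fit that joined the offset with the replicate number as a block lost the call (-0.35, adjusted p = 0.103 from edgeR). Its relative Chsy3, at 11.4 ± 1.13 and 8.55 ± 1.75 CPM (SD, n = 4), did not overlap between the ages either but did not pass (log2 fold change -0.42, edgeR adjusted p = 0.0639), and the ratio of Chsy1 to Chsy3 overlapped. The polymerising factor Chpf was at 113, 61.5, 70.6 and 82.9 CPM and at 78.8, 76.9, 76.1 and 126 CPM, where 2 years replicate 4 stood alone. Chpf2 was at 88.4, 43.9, 61.4 and 63.8 CPM and at 59.0, 75.7, 51.1 and 61.5 CPM, with the 12-week spread covering all 2-year values. Reads of Chpf2 are uncertain because its exons overlap those of Smarcd3 on the opposite strand and the sources used here do not state how strand was handled. With the offset Chpf and Chpf2 were called higher (0.46 and 0.51), which for Chpf2 turns the sign of its log2 fold change of -0.06. Among the other tested enzymes, Chst15, Chsy1, B4galt7, Hs6st1 and Hs3st3a1 have exons that overlap opposite-strand genes absent from the count tables. The uncertainty about strand holds for these as well.

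Of the 2 epimerases that turn chondroitin into dermatan sulfate, Dse rose and Dsel did not pass the test. Dse was at 59.4, 72.6, 64.6 and 63.8 CPM at 12 weeks and at 98.5, 95.6, 71.0 and 90.6 CPM at 2 years. Only 2 years replicate 3 fell within the 12-week range, and the log2 change was 0.45 ± 0.13 (SE, adjusted p = 0.0149 by edgeR). Dsel was at 44.9, 58.5, 52.9 and 57.7 CPM and at 49.6, 48.0, 25.2 and 34.9 CPM. Its log2 change was -0.44 ± 0.20 (SE, adjusted p = 0.0863 by edgeR), but it was called at -0.57 without 2 years replicate 1 or 2 (adjusted p = 0.0419 and 0.0494). Dse exceeded Dsel per length in every library, the ratio being 1.45 to 1.74 at 12 weeks and 2.61 to 3.69 at 2 years, without overlap. With the length and GC offset Dse was at 0.59 and called, and Dsel was at -0.11 and not called.

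On the heparan sulfate side, most chain polymerases did not pass the test, with 1 of 5 higher, beside 25.8% of all genes higher. Ext1 and Ext2, which together form the copolymerase, and the initiating enzyme Extl3 were among the most abundant enzymes per length at 12 weeks, at 26.96, 39.12 and 19.75 CPM per kb. Ext2 was at 116, 108, 108 and 117 CPM and at 120, 127, 103 and 120 CPM, and its log2 fold change of 0.07 (SE 0.11) was smaller than its SE. Ext1 was at 214, 238, 190 and 185 CPM and at 156, 143, 245 and 177 CPM. In 2 years replicate 3 it was the highest of all libraries, in the other 3 it was below all 12-week libraries. The log2 fold change was -0.20 (edgeR adjusted p = 0.366), and -0.38 and called without that library (adjusted p = 0.031). With the offset it was 0.35 and not called. Extl3 was at 126, 101, 128 and 121 CPM and rose to 142, 144, 145 and 159 CPM. The ages did not overlap, yet the call was narrow (log2 change 0.31 ± 0.12 (SE), adjusted p = 0.0466 by edgeR). It was lost without any 1 library other than 2 years replicate 3 (0.24 to 0.35, adjusted p = 0.0543 to 0.13), and with the offset the value was 0.80. Extl2, which can cap the linker, was at 30.7 ± 1.78 and 31.1 ± 3.19 CPM, and Extl1 at 1.13 ± 0.648 and 1.13 ± 0.970 CPM (SD, n = 4).

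N-sulfation opens heparan sulfate to all later sulfation, and 2 of its 3 tested enzymes were called lower, beside 26.2% of all genes. Ndst3 had the largest change of all 38 enzymes: 8.43, 10.7, 9.54 and 9.69 CPM at 12 weeks against 1.74, 2.05, 1.63 and 2.19 CPM at 2 years. The groups were each narrow and far apart, a 5.02-fold fall (log2 change -2.33 ± 0.18 (SE), adjusted p = 3.51e-06 by edgeR), or -2.04 with the offset. Per length it was a minor form, at 1.72 CPM per kb against 31.3 for Ndst1 and 6.51 for Ndst2 at 12 weeks. Ndst1, the main N-deacetylase and N-sulfotransferase of most tissues, was at 225, 180, 205 and 202 CPM and at 103, 104, 141 and 120 CPM. All 2-year libraries were lower (log2 change -0.80 ± 0.14 (SE), adjusted p = 0.000705 by edgeR). Its transcript of 6478 nt is long, and with the offset the value was -0.25 and the call was lost (adjusted p = 0.092 from edgeR). Ndst2, at 31.3, 21.9, 21.9 and 26.7 CPM and at 18.5, 25.2, 25.2 and 21.2 CPM, overlapped between the ages (log2 fold change -0.18, edgeR adjusted p = 0.371). The ratio of Ndst1 to Ndst2 per length was 4.33 to 5.63 at 12 weeks and 2.48 to 3.40 at 2 years, and its shift on the log2 scale went from -0.63 to -0.32 with the offset.

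Of 6 tested enzymes for O-sulfation of heparan sulfate, 4 were higher and 0 lower, beside 25.8% of all genes higher. Without 12 weeks replicate 3, or without 12 weeks replicate 4, the count was 2 of 6. Hs3st1, which makes the rare 3-O sulfate of the antithrombin-binding site, was at 6.33, 8.05, 7.58 and 9.53 CPM and rose to 14.7, 15.7, 14.4 and 16.1 CPM. The lowest 2-year library was well above the highest 12-week library (1.93-fold, log2 change 0.95 ± 0.15 (SE), adjusted p = 0.000386 by edgeR). Its transcript of 1686 nt is among the shortest of the enzymes, and the value was 0.46 with the offset, still called. Hs2st1, the only 2-O sulfotransferase of heparan sulfate, was at 23.1, 29.96, 27.8 and 25.8 CPM and at 34.8, 36.9, 43.4 and 30.2 CPM. The highest 12-week and the lowest 2-year value almost met (log2 change 0.44 ± 0.14 (SE), adjusted p = 0.0199 by edgeR). The call was lost without 12 weeks replicate 1 (0.37), 12 weeks replicate 4 (0.42) or 2 years replicate 2 (0.41), and the value was 0.83 with the offset.

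Hs6st2, which sulfates the 6-O position of glucosamine, was at 8.17, 10.6, 6.81 and 7.95 CPM and at 10.96, 11.3, 13.1 and 15.4 CPM. The ages did not overlap (log2 change 0.60 ± 0.18 (SE), adjusted p = 0.0143 by edgeR), and without 12 weeks replicate 3 it stood just past the limit (0.51, adjusted p = 0.0504). Hs6st1, per length the more abundant form in every library, was at 29.3, 24.4, 26.5 and 28.2 CPM and at 29.4, 29.4, 35.6 and 37.9 CPM. It did not pass (log2 change 0.29 ± 0.13 (SE), adjusted p = 0.0801 by edgeR), although the ages do not overlap, and was called with the offset (0.55). Hs3st3b1, another 3-O sulfotransferase, was low: 1.27, 1.16, 0.592 and 0.933 CPM against 2.05, 1.11, 2.60 and 2.33 CPM. Replicate 2 at 2 years sat among the 12-week values (log2 change 1.03 ± 0.36 (SE), adjusted p = 0.0322 by edgeR). Leaving out a single library ended the call for each library other than 12 weeks replicate 1 and 2 years replicate 2 (0.84 to 1.11, adjusted p = 0.0514 to 0.088). Its close relative Hs3st3a1, at 2.27, 1.04, 1.15 and 2.15 CPM and at 1.91, 1.96, 1.63 and 2.64 CPM, overlapped between the ages. Without 12 weeks replicate 3 and 2 years replicate 3 together, Hs3st1 alone of this step was called higher.

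The linker, common to chondroitin and heparan sulfate, had 2 of 5 enzymes called lower, beside 26.2% of all genes. Xylt1, one of the xylosyltransferases that start this linker, was at 22.5, 27.1, 22.4 and 26.2 CPM and at 15.5, 10.8, 15.1 and 22.7 CPM. Replicate 4 at 2 years lay within the 12-week range, and the log2 change was -0.61 ± 0.20 (SE, adjusted p = 0.0232 by edgeR). The call was lost without 12 weeks replicate 2 (-0.56), 12 weeks replicate 4 (-0.58) or 2 years replicate 1 (-0.59). Its transcript is the longest of the enzymes, 9020 nt, and with the offset the value was 0.07 and not called. Xylt2, with the same activity, was at 29.7, 25.5, 28.5 and 30.9 CPM and at 18.2, 22.0, 28.5 and 23.96 CPM. Only 2 years replicate 3 reached into the 12-week range (log2 fold change -0.31, edgeR adjusted p = 0.0983), and without it Xylt2 was called (-0.42, adjusted p = 0.019).

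B4galt7, which adds the first galactose of the linker, was at 12.1, 10.9, 10.3 and 8.72 CPM and at 6.62, 7.89, 7.61 and 8.06 CPM. All 2-year values were lower (log2 change -0.48 ± 0.15 (SE), adjusted p = 0.0207 by edgeR), and the value was -0.63 with the offset. Without 2 years replicate 1 it was -0.42 and not called (adjusted p = 0.0631). B3galt6, the next galactosyltransferase, was at 5.29 ± 0.781 and 6.81 ± 0.499 CPM (SD, n = 4) and B3gat3, which closes the linker with glucuronic acid, at 22.6 ± 6.36 and 24.8 ± 6.34 CPM. Neither passed the test (log2 fold changes 0.36 and 0.13, edgeR adjusted p = 0.0938 and 0.653).

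Of 4 tested sulfotransferases that act on keratan sulfate and on other glycans, Chst1 alone was called, beside 52% of all genes. Chst1 sulfates galactose in keratan sulfate and rose from 3.01, 2.77, 6.70 and 6.00 CPM to 7.33, 19.8, 14.3 and 14.03 CPM. The ages did not overlap, but both were spread, with 2 years replicate 1 near the upper 12-week values (2.99-fold, log2 change 1.58 ± 0.35 (SE), adjusted p = 0.00387 by edgeR). Chst2, which sulfates GlcNAc in selectin ligands, was at 19.5 ± 1.95 and 20.1 ± 6.71 CPM (SD, n = 4), highest in 2 years replicate 3 at 29.0 CPM. Chst4, of the same activity, was at 2.38 ± 0.334 and 3.80 ± 2.46 CPM (log2 change 0.65 ± 0.42 (SE), adjusted p = 0.212 by edgeR), with 7.15 CPM in 2 years replicate 3 and 1.25 CPM in 2 years replicate 4. Without replicate 4 it was called at 0.95 (adjusted p = 0.0293), and without replicate 3 the value was 0.17. Chst10, which makes the HNK-1 epitope of neural glycans, was at 7.69 ± 0.749 and 9.58 ± 1.91 CPM, and was called only with the offset (0.59) and with the offset and the replicate block (0.57).

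The 10 enzymes that were not tested had few counts or none. Ndst4 had 0 counts in all 8 libraries, which allows a level of up to 0.0148 CPM by counting error alone. Hs3st2, Chst5 and Chst9 had 1 count each, Hs3st6 had 3, Hs3st5 had 6, all in 12 weeks replicate 3, Chst13 had 8, Hs3st4 had 10, Hs6st3 had 16 and Chst8 had 28. Chst13, the third chondroitin 4-O enzyme beside Chst11 and Chst12, had all its counts at 2 years, in 3 libraries. Chst8, which sulfates GalNAc on hormones, had 5 counts at 12 weeks and 23 at 2 years.

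Outside these families, 73 further pathway genes were listed, of which 68 were tested. The calls were 15 higher and 17 lower (median log2 change 0.11), a share close to the 52% of all genes. Supply of the sulfate donor PAPS was split: of 8 tested, 2 rose and 2 fell, or 4 and 2 with the offset. Slc35b2, the main PAPS transporter of the Golgi, was at 37.9, 25.5, 27.4 and 29.9 CPM and rose to 40.5, 67.8, 59.4 and 44.1 CPM (log2 change 0.81 ± 0.19 (SE), adjusted p = 0.0039 by edgeR). The related PAPS transporter Slc35b3 fell from 16.4, 16.1, 15.9 and 12.9 CPM to 9.10, 10.7, 8.45 and 8.54 CPM (log2 change -0.73 ± 0.14, SE, adjusted p = 0.00146 by edgeR). Both were free of overlap, in opposite directions. Papss2, a PAPS synthase, rose by 0.46 (edgeR adjusted p = 0.0314) and the sulfate transporter Slc26a11 fell by 0.52 on the log2 scale (edgeR adjusted p = 0.0275). Papss2 was not called without any 1 library other than 12 weeks replicate 2 and 2 years replicate 3 (0.37 to 0.45), nor Slc26a11 without 12 weeks replicate 1 or 2 years replicate 4 (-0.42 each).

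Beside 25.8% of all genes higher and 26.2% lower, 0 of 12 tested genes for nucleotide sugars rose and 1 fell. That gene was Slc35d1, the Golgi and endoplasmic reticulum carrier of UDP-glucuronic acid and UDP-GalNAc, which chondroitin needs: 29.5, 24.2, 25.04 and 29.4 CPM at 12 weeks and 9.70, 7.12, 13.6 and 11.01 CPM at 2 years. The ages were far apart (log2 change -1.39 ± 0.19 (SE), adjusted p = 0.000125 by edgeR). With the offset 3 of these 12 rose and 2 fell. Neither of the linker modifiers was called: the xylose kinase Fam20b was at 90.1 ± 9.598 and 107 ± 16.1 CPM and the xylose phosphatase Pxylp1 at 20.5 ± 2.26 and 16.9 ± 1.45 CPM (SD, n = 4), and with the offset the first was called higher and the second lower. Fam20b was also called without 2 years replicate 3 (0.34) and Pxylp1 without 12 weeks replicate 1 (-0.36).

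Of genes that edit or break down finished chains, 3 of 4 editing genes and 9 of 17 lysosomal genes were called, beside 52% of all genes. Hpse, the heparanase that cuts heparan sulfate outside cells, was at 3.36, 7.12, 7.10 and 6.98 CPM and rose to 23.9, 28.2, 16.6 and 22.7 CPM, well clear of the 12-week values (3.72-fold, log2 change 1.89 ± 0.25 (SE), adjusted p = 0.000102 by edgeR). The extracellular 6-O endosulfatases Sulf1 and Sulf2 fell, by 0.63 and 0.56 on the log2 scale (edgeR adjusted p = 0.0219 and 0.0111). With the offset both calls were lost (-0.35 and -0.30), and that of Sulf1 also without 12 weeks replicate 1 (-0.60) or 2 (-0.56). Of 17 tested genes of lysosomal breakdown, 7 rose and 2 fell, and 4 rose without 12 weeks replicate 2, 3 or 4, without 2 years replicate 4, or without both replicates 3. Gusb, a glucuronidase, and Hgsnat, an acetyltransferase of heparan sulfate breakdown, rose by 0.66 and 0.65 on the log2 scale (adjusted p = 0.000849 and 0.001 by edgeR), and Hyal1, a hyaluronidase, fell from 101, 124, 129 and 142 CPM to 51.8, 34.6, 37.4 and 72.6 CPM (log2 change -1.33 ± 0.22 (SE), adjusted p = 0.000533 by edgeR).

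Core proteins that carry the chains gave 5 higher and 10 lower of 25 tested, beside 25.8% of all genes higher and 26.2% lower. Srgn, the serglycin core of blood cell granules, rose from 17.2, 32.5, 23.9 and 21.4 CPM to 128, 117, 109 and 74.1 CPM (log2 change 2.17 ± 0.22 (SE), adjusted p = 1.97e-05 by edgeR). The syndecans Sdc1 and Sdc3 rose by 1.48 and 1.16 (edgeR adjusted p = 7.98e-05 and 0.000482). Agrin (Agrn), a heparan sulfate proteoglycan of basement membranes, fell from 173, 131, 151 and 157 CPM to 72.0, 54.6, 65.3 and 97.0 CPM (log2 change -1.08 ± 0.18 (SE), adjusted p = 0.000448 by edgeR), and was at -0.38 with the offset. With the offset 6 of the 25 rose and 7 fell.

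Change and transcript length were linked across all genes: the median log2 fold change fell from 0.60 in the shortest to -0.64 in the longest of 10 length bins. Across the 38 enzymes the Spearman correlation of length and log2 fold change was -0.24, and -0.42 across 13840 tested genes with a length. Genes are not independent replicates, and all share the same 8 libraries. The slope of relative log2 CPM on log2 length was 0.124 to 0.262 in the 12-week libraries and -0.314 to -0.107 in the 2-year libraries (exact two-sided permutation p = 0.0286, the smallest possible). Chst11 and Chst15, with transcripts of 5527 and 5041 nt, rose against this trend, and Chst3, at 6108 nt, fell by more than it, as did Ndst3 at 5570 nt. Xylt1, at 9020 nt and -0.61, lay close to the median of the longest bin. Of the 17 called enzymes 15 were also called in the same direction with the offset. In all 16 alternatives run, 9 kept their call and direction: Chst1, Chst3, Chst7, Chst11, Chst15, Csgalnact1, Dse, Hs3st1 and Ndst3.

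**Figure D4:**
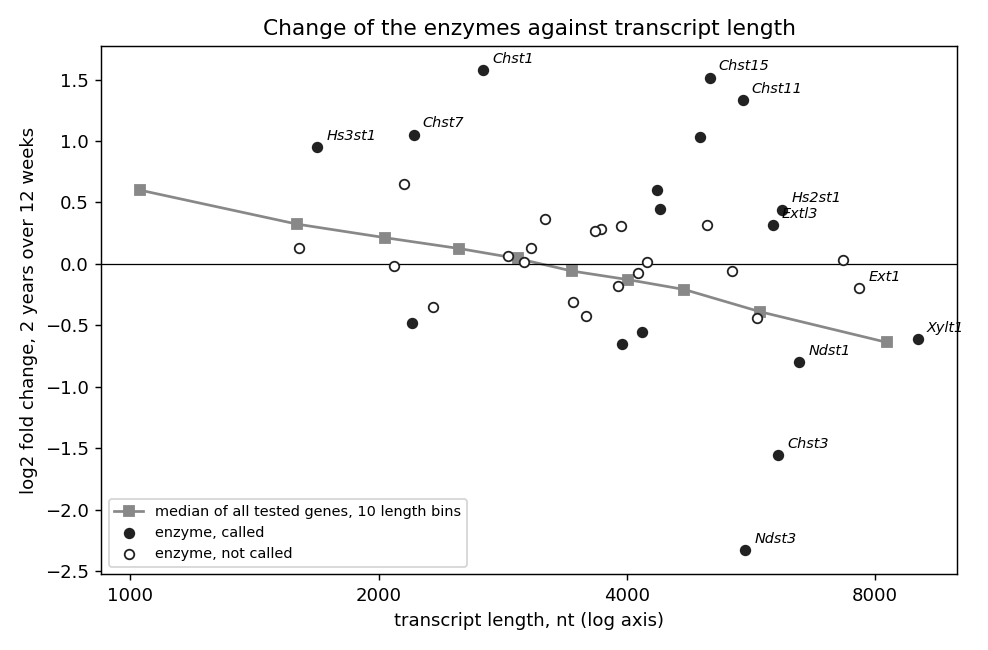
Log2 fold change (2 years over 12 weeks) of the 38 tested enzymes against transcript length on a log axis. Circles are enzymes, filled where called, and grey squares are the median of all tested genes in 10 length bins, which runs from 0.60 to -0.64. Chst11 and Chst15 lie above and Chst3 and Ndst3 below the grey line.

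Summed markers of immune cells and of red blood cells were higher in every 2-year library than in every 12-week library. All 10 macrophage markers tested were called higher, with a summed level of 672.6 to 944.1 CPM at 12 weeks and 2673 to 3904 CPM at 2 years. So were all 9 T and NK cell markers (56.1 to 73.6 and 146 to 285 CPM) and all 7 B and plasma cell markers (2.03 to 3.26 and 239 to 1227 CPM). Thy1 made up most of the T and NK sum, with means of 52.6 CPM at 12 weeks and 143 CPM at 2 years. Jchain made up most of the B and plasma cell sum at 2 years, with a mean of 570.2 CPM. At 12 weeks Mzb1 and Gzmk had 0 counts. All 6 red blood cell markers were higher too (442.3 to 724.6 and 1777 to 7939 CPM). Of 8 smooth muscle markers 6 were lower, while Acta2 (2035 nt) and Tagln (1595 nt) were not called. Among all genes tested 25.8% were higher and 26.2% lower. The median transcript length was 3667 nt for the smooth muscle markers and 3175 nt for all genes tested. It was 1952 nt for macrophage, 1462 nt for T and NK, 1457 nt for B and plasma and 701 nt for red blood cell markers. Marker values with the offset are not given here. Fibroblast markers gave 1 higher and 1 lower of 8 (2166 to 2593 and 1846 to 3020 CPM), and endothelial markers 0 higher and 2 lower of 8 (427.5 to 902.2 and 419.3 to 604.9 CPM). The endothelial sum of 427.5 CPM was that of 12 weeks replicate 1, against 817.4 to 902.2 CPM in the other 12-week libraries. Heart muscle markers gave 0 higher and 3 lower of 7 tested, and their sum was lower in every 2-year library (227.1 to 1204 and 94.89 to 182.5 CPM). Of these, Ryr2, with a transcript of 16814 nt, had means of 163.3 CPM at 12 weeks and 24.68 CPM at 2 years, without overlap. The part of all these marker shifts in the enzyme values was not tested.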

How the data were processed

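The authors deposited raw counts per gene symbol for 8 libraries, per the labels and the file headers (column of total counts), and the values were whole numbers in every table. The genome build was GRCm39, per the submitters' processing notes; the aligner, counting tool, annotation, strand setting and treatment of reads with several matches were not stated there or in the labels. Per the labels' protocols, total RNA came from a spin-column extraction and was read on a NovaSeq sequencer. The labels do not say whether libraries were prepared together; the sample numbers in the file headers form separate blocks for the ages, so any handling that followed them cannot be told apart from age. Groups came from the sample titles.

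Totals were 16251986 to 33880690 counts per library. Genes passing edgeR's filterByExpr (13978) were scaled by TMM and went into edgeR's robust quasi-likelihood fit (glmQLFTest, age as the only term) with Benjamini-Hochberg adjustment over all of them. Log2 CPM used a prior count of 2. SEs came from the log2 fold change and the F statistic. Transcript length and GC share (longest coding transcript) came from GENCODE M21 (GRCm38) by symbol for 99% of tested genes and all 48 enzymes. The offset removed a per-library spline trend (4 degrees of freedom each) on both. Exact permutation tests ran over the 70 assignments of 8 libraries. Pairs of libraries within an age differed by 22.5 to 150.4 times counting variance (chi-square per degree of freedom), so none was a copy. P-values measure the spread between these libraries.

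Alternatives were DESeq2 size factors, DESeq2, limma voom, no low-count filter, the replicate number as a block, the offset, each library left out, and, for pair ratios, a prior count of 0.5. Leaving out both replicates 3 was added after seeing the data. The pipeline was tested on simulated data. The enzymes, lists and pairs were chosen with earlier results of these data known. Every enzyme may be named; of each pathway list up to 4 called genes with the smallest p are, or 2 with the highest CPM where none was called. A lysosomal gene that this rule would name is not reported here. The software was edgeR 4.0.16, DESeq2 1.42.0 and limma 3.58.1 under R 4.3.3.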

Additional observations from a re-analysis of the deposited data

Results flagged for a closer look

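Values of a single library far from the other 3 of its age were looked for in 76 groups of 4 (38 enzymes at both ages; the gap to the nearest library set against the range of the 4), and 2 were found, fewer than chance flags, about 1 in 20. Chpf was at 125.9 CPM in 2 years replicate 4 and at 76.1 to 78.8 CPM in the other 2-year libraries. Chst4 was at 1.89 CPM in 12 weeks replicate 2 and at 2.47 to 2.59 CPM in the other 12-week libraries.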

How the results depend on the processing

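Over 16 alternatives the enzymes called numbered 13 to 20, with 7 to 14 higher and 5 to 9 lower. They were counted over 38 tested enzymes, or over 47 without the low-count filter. The share of all genes called moved too, from 42.2% without the low-count filter to 55% with DESeq2. The median log2 fold change of the enzymes was 0.05, and 0.32 with the length and GC offset, 0.27 with the offset and the replicate block, and -0.0042 to 0.18 with single libraries left out (0.18 without 2 years replicate 1). The offset turned the sign of Ext1 (0.35), Ndst2 (0.07), Extl1 (0.23), Extl2 (-0.11) and B3gat3 (-0.03), called in neither fit, of Chpf2 (0.51, called), and of Xylt1 (0.068, and 0.056 with the block), Fbn1 (0.20 and 0.20), Hspg2 (0.16 and 0.14) and Cspg4 (0.13 and 0.14), none of these 4 called with it, and of Slc26a2 (0.53 and 0.52, both called). Same-numbered libraries of the ages did not deviate together (correlations -0.304, -0.118, 0.063 and 0.029), so the numbers do not pair the mice. With the replicate block 8 enzymes were higher and 6 lower (6432 of all genes called), the calls of Hs3st3b1 (1.01), B4galt7 (-0.47) and Extl3 (0.32) being lost. DESeq2 size factors and DESeq2 gave the same 17 calls. The cause of these shifts was not tested. Depth limits Extl1 and Hs3st3b1, which had 210 and 303 counts over all libraries.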
